A study of Mus musculus with 12 samples.

Results

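The genes described here are the 3 alarmins of barrier tissues, Il33, Il25 and Tslp, and the 5 receptor chains that bind them, Il1rl1, Il1rap, Il17rb, Il17ra and Crlf2. They were taken by gene name from a table of transcript levels in mouse distal colon. This gave 8 of 35240 gene symbols, with 31 of 113193 transcripts. RNA of the full thickness of the distal colon was sequenced mouse by mouse from 6 Spry2IEKO and 6 Spry2FF mice. Spry2IEKO mice (Vil1::Cre;Spry2-f/f) carry Cre recombinase under the promoter of villin, a protein of intestinal epithelial cells, together with floxed Spry2 alleles. Spry2FF mice (Spry2-f/f) carry the same floxed alleles without Cre, so Spry2 can be removed from the epithelium of the first group and stays in all other cells of the tissue. Litters A and B each gave 3 Spry2FF and 3 Spry2IEKO mice. Males made up 3 of the 6 Spry2FF and 1 of the 6 Spry2IEKO mice, the others being female, and the labels give ages of 6 and 8 weeks in different places. In litter A, 2 of the 3 Spry2FF and 0 of the 3 Spry2IEKO mice were male, so genotype and sex could not be fully separated there. In litter B, each genotype had 1 male.

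Alarmins are cytokines that barrier cells release when they are damaged or sense a threat. IL-33 is kept in the nucleus of epithelial, stromal and endothelial cells and signals through ST2, encoded by Il1rl1, and its shared partner chain, encoded by Il1rap. IL-25 comes from tuft cells of the gut and signals through IL-17RB and IL-17RA, and TSLP signals through the receptor encoded by Crlf2 and the IL-7 receptor chain. Group 2 innate lymphoid cells (ILC2s), mast cells and other immune cells carry these receptors, and ILC2s answer with IL-13, which drives goblet and tuft cell growth in the gut.

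Levels are given in normalized TPM, the abundance of a transcript corrected for its length and the reads of a library and then scaled between mice, and a gene's level is the sum of its transcripts. The values of a mouse summed to 918816 to 1069158 in Spry2FF mice and to 972094 to 1065858 in Spry2IEKO mice. The totals hold scaled TPM and no reads, and beyond the nominal depth in the study's methods the depth per library is not known, so that no counting interval is given. In bulk tissue, fewer cells of a type and less RNA per cell cannot be told apart. Spry2 served as a check of the labels, at 20.0 ± 1.59 (SD, n = 6) in Spry2IEKO and 27.7 ± 3.29 (SD, n = 6) in Spry2FF mice, with all 6 Spry2IEKO mice below all Spry2FF mice. Genes that mark the distal colon (5 genes, led by Hoxd13 and Hoxa13) summed to 199 to 278 in the 12 mice. Fat genes summed to 626 and 1152 in Spry2IEKO replicates 4 and 5 and to at most 124 in the other mice.

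Il33 has 2 promoters in RefSeq (build GRCm38.p6), which lie 20677 bases apart on the plus strand of chromosome 19, and the 250 bases before each start are shown because the results below divide the gene's level between them. The promoter of Il17rb, on the minus strand of chromosome 14, is shown because this receptor is the member whose genotypes did not overlap. Sequences run 5′ to 3′ and capitals mark matches to the motifs searched.
Il33 upstream promoter, chr19:29924863-29925112: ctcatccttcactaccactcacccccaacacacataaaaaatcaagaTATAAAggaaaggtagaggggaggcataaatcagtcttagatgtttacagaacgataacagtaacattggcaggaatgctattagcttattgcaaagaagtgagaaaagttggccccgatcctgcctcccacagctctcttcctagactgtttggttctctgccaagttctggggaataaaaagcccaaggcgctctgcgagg
Il33 downstream promoter, chr19:29945540-29945789: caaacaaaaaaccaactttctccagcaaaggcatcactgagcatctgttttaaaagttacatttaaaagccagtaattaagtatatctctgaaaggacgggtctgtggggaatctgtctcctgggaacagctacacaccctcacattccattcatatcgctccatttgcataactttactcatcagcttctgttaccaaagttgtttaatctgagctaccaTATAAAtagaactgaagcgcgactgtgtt
Il17rb promoter, chr14:30008897-30009146: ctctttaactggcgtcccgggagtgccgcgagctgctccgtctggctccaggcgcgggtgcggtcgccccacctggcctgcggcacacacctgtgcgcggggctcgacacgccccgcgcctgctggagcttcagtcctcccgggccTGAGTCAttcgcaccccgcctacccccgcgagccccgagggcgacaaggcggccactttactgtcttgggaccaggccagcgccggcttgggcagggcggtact
The motifs, searched on both strands, were the TATA box (TATAAA), AP-1 (TGANTCA), the TCF/LEF motif (CTTTGAT) and those of the ETS family (CCGGAAG) and the GATA family (AGATAAG). The letters of the TATA box were found in both Il33 promoters, at -29 from the downstream start and farther off from the upstream start, and 12.4% of all 32851 promoters hold them. The AP-1 letters were found at -104 from the Il17rb start, and 6.75% of all promoters hold them. The letters of the GATA family were found in an Il1rl1 promoter and in 2.74% of all promoters. Those of TCF/LEF and the ETS family were in none of the promoters of the 8 genes that were searched, and 3.21% and 6.91% of all promoters hold them. GC content was 45.2% and 39.6% in the upstream and downstream Il33 promoters and 72% in that of Il17rb, against a median of 52.4% over all promoters. Il33 thus had promoters with less GC than the median and Il17rb one with more. These matches are letters in a window and say nothing about binding. Promoters of 5 of the 8 genes were searched, and those of Il25, Tslp and Il17ra were not.

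Across the 12 mice, Il33 had the highest mean level of the 8 genes, 13.4 ± 2.60 (SD, n = 12), followed by Il17ra at 12.1 ± 2.76 (SD, n = 12). These neighbours did not separate, since Il33 was above Il17ra in 7 of 12 mice. Il1rap followed at 5.58, Il17rb at 2.62 and Crlf2 at 1.599. Tslp was at 0.888, Il1rl1 at 0.404 and Il25 at 0.0761. Of the 7 steps in this order, only that from Il17ra to Il1rap kept the ranges of both genes apart. Among the genes above 0, the level of Il33 lay at percentile 69.3 and that of Il25 at 17.6. The ligand of the ST2 receptor was therefore the most abundant member and its own receptor, Il1rl1, one of the least abundant.

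**Figure D1:**
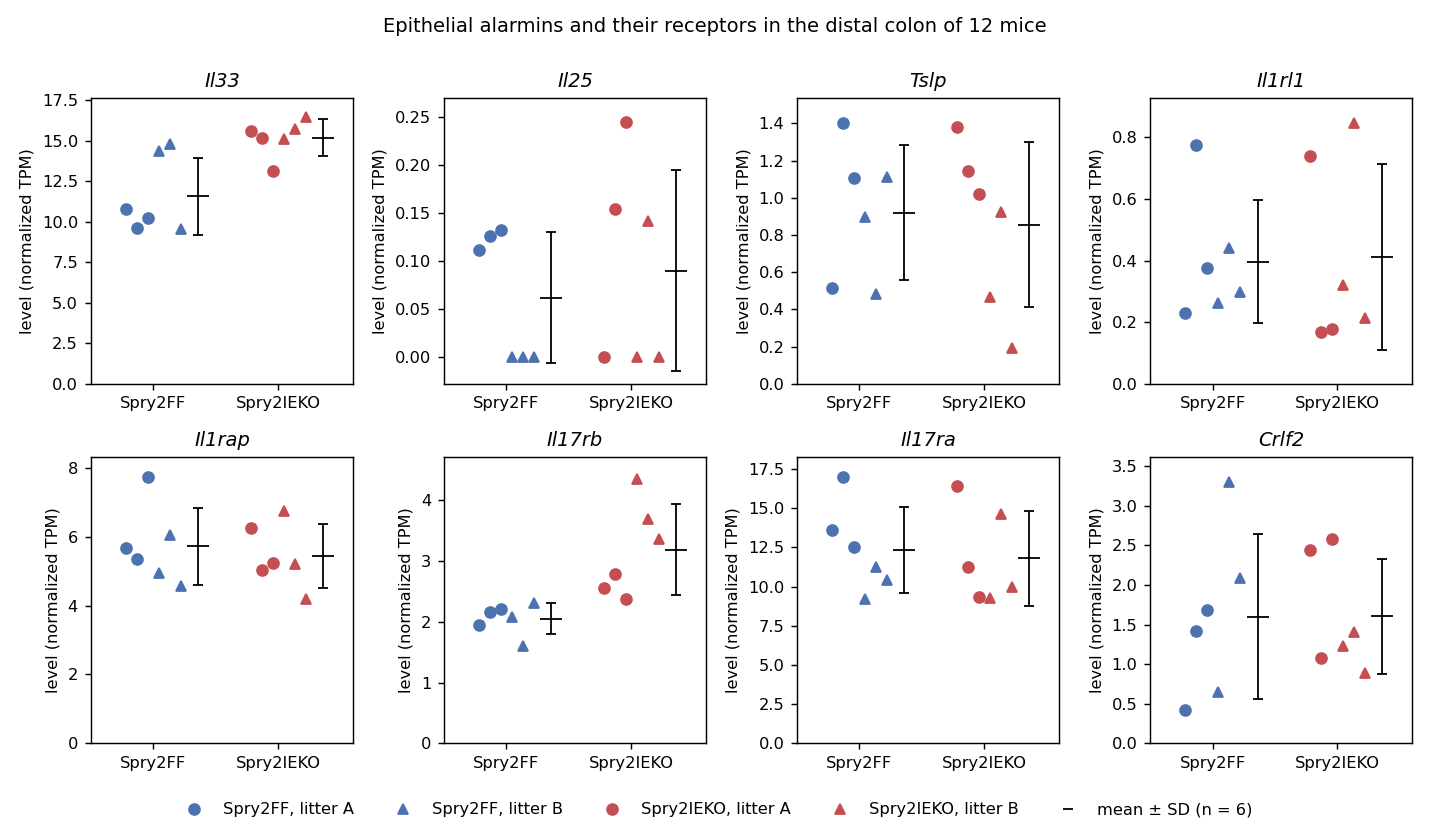
Level of each of the 8 genes in every mouse (vertical axes, normalized TPM, each panel with its own scale), by genotype on the horizontal axis, with circles for litter A, triangles for litter B and black bars for the mean ± SD of 6 mice. Il17rb was higher in all 6 Spry2IEKO mice than in any Spry2FF mouse and Il33 in 5 of 6, whereas the other 6 genes overlapped more widely.

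The question for each gene was whether its level differed between the genotypes. Il33 and Il17rb were higher in Spry2IEKO mice by a single-gene test, and none of the 8 genes passed an adjusted p over all genes. Of the 8 genes, 6 had a mean of at least 0.5 and entered a limma comparison of 15879 genes on log2(normalized TPM + 0.5), and Il1rl1 and Il25 lay below that minimum. By limma, 0 of these 6 had a Benjamini-Hochberg adjusted p under 0.05, where 0.0315% of all genes did, and 2 had an unadjusted p under 0.05, where 6.18% of all genes did. By exact permutation of the mice (two-sided, unadjusted), the same 2 of 8 genes had a p under 0.05, where 6.01% of the genes in the limma comparison did. The median log2 fold change of the 6 genes was 0.015, beside 0.0076 over all genes. Both genes had been seen to be higher in these libraries when the 8 genes were chosen, so their tests are not independent evidence. Only Spry2IEKO and Spry2FF mice of the same tissue were compared, and differences smaller than the spread between mice were not detectable.

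Il33 (ENSMUSG00000024810, chromosome 19, 29925114 to 29960718, plus strand of GRCm38) ranged in Spry2FF mice from 9.56 to 14.8 around a median of 10.5, and in Spry2IEKO mice from 13.1 to 16.4 around a median of 15.4. Spry2IEKO replicate 6 lay within the range of the controls, and the other 5 Spry2IEKO mice lay above all of it. The means were 15.2 ± 1.13 (SD, n = 6) and 11.6 ± 2.38 (SD, n = 6), a ratio of 1.31 (two-sided exact permutation test, p = 0.0152). The log2 fold change was 0.40 with a standard error of 0.120 (limma, adjusted p = 0.653). Among the controls, replicates 9 and 10 of litter B, at 14.3 and 14.8, stood above the other 4, at 9.56 to 10.8. In litter A, Spry2IEKO mice exceeded Spry2FF mice by 4.42 and their ranges did not overlap. In litter B they exceeded them by 2.84, again with no overlap. When mice were exchanged only within litters, the exact permutation p was 0.005, the smallest that this exchange allows. In females alone, 5 Spry2IEKO against 3 Spry2FF mice, the difference was 3.68 (exact permutation test, p = 0.0357).

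Several cell types of the colon wall can hold IL-33, and their markers are given beside this result. The 8 genes of the whole epithelium summed to 6038 to 7360 in Spry2IEKO and 7052 to 8462 in Spry2FF mice. Their log2 fold change was below 0 for 6 and above 0 for 2, with a median of -0.16. By limma 4 of the 8 were lower in Spry2IEKO mice at an unadjusted p under 0.05, and 0 passed the adjusted p. The part of the epithelium in the level of Il33 was not tested. The 10 fibroblast genes, led by Col3a1, Dcn and Col1a2, summed to 288 to 826 and 332 to 681, and the 10 endothelial genes, led by Pecam1, Plvap and Lyve1, to 42.2 to 132 and 30.8 to 88.5. The 8 smooth muscle genes summed to 3292 to 8032 in Spry2IEKO and 4253 to 7058 in Spry2FF mice. The ranges of the 3 stromal lists overlapped between genotypes, and none of their genes was listed at 0 in every mouse. The mean was higher in Spry2IEKO mice for all 10 endothelial genes, 8 of 10 fibroblast genes and 1 of 8 smooth muscle genes, and the median log2 fold changes were 0.22, 0.039 and -0.14. By limma 0 of the genes on these 3 lists had an unadjusted p under 0.05, and their part in the level of Il33 was not tested. No relation of Il33 to the fibroblast sum was detectable over the 12 mice (log2 scale, Pearson r = -0.17, permutation p = 0.596, and Spearman rho = -0.11, permutation p = 0.733; both adjusted over 4 relations, 0.596 and 0.939). Without the 2 mice farthest from the median fibroblast sum, r was -0.15. It was -0.39 in Spry2IEKO and -0.37 in Spry2FF mice, and within litters A and B it was 0.53 and 0.019. Spry2 split the mice into the genotypes, so the relation of Il33 to Spry2 was computed within each, with r = -0.13 in Spry2IEKO mice (exact permutation test, p = 0.812) and r = -0.32 in Spry2FF mice (exact permutation test, p = 0.561). A relation within a genotype was not detectable with 6 mice.

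**Figure D2:**
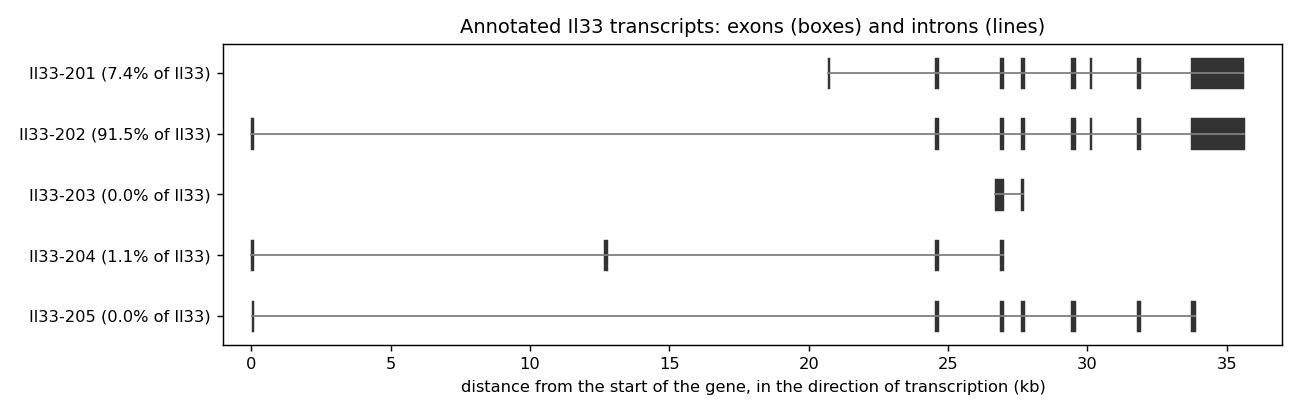
Exons (boxes) and introns (lines) of the 5 annotated Il33 transcripts by distance in kb from the start of the gene, in the direction of transcription, with each transcript's share of the gene's mean level over 12 mice. Il33-202 and Il33-201 differ in their first exon and share the other 7, apart from the last bases of exon 8.

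The table lists 5 transcripts of Il33, and nearly all of the gene's level lay in the one that begins at the upstream promoter. Il33-202 (chromosome 19, 29925114 to 29960718, 8 exons) carried 91.5% of the mean level, and Il33-201 (29945790 to 29960704, 8 exons), which begins 20676 bases downstream, carried 7.40%. Both encode 266 codons and share 2475 bases, 97.6% of Il33-202 and 97.3% of Il33-201, which leaves 62 and 69 bases that tell them apart. Reads that fall in the shared part were divided between the transcripts by the authors' estimate, so the split is less certain than the sum. Il33-204, a 4-exon transcript from the upstream start, carried 1.11%. Il33-203 and Il33-205 were listed at 0 in every mouse.

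Il33-202 ranged in Spry2FF mice from 9.56 to 14.3 around a median of 10.03, and in Spry2IEKO mice from 10.04 to 16.4 around a median of 13.3. The means, 11.1 ± 2.11 (SD, n = 6) and 13.3 ± 2.05 (SD, n = 6), differed by 2.18, which did not exceed the spread between mice (exact permutation test, p = 0.132). The log2 fold change was 0.25 with a standard error of 0.140 (limma over 45448 transcripts, adjusted p = 0.989). Its level was higher in litter B, at 13.5, than in litter A, at 10.96 (exact permutation test, p = 0.0433, unadjusted). Il33-201 was above 0 in 4 Spry2IEKO mice, at 0.905 to 4.50, and in 2 Spry2FF mice, at 0.950 and 1.504. Its means were 1.57 ± 1.70 (SD, n = 6) and 0.409 ± 0.658 (SD, n = 6), and the difference was within the spread (exact permutation test, p = 0.165). Il33-204 was above 0 only in Spry2IEKO replicates 4 and 8, at 1.054 and 0.731. By limma, 0 of the Il33 transcripts passed an adjusted p of 0.05, where 0.0022% of all transcripts did. The 2 transcripts that begin upstream and were detected summed to 13.6 ± 1.76 (SD, n = 6) and 11.1 ± 2.11 (SD, n = 6) (exact permutation test, p = 0.0563). Each start alone thus missed the threshold that the sum of all Il33 transcripts passed.

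The share of Il33-202 in the gene's level was 64.4% to 100% in Spry2IEKO mice and 89.8% to 100% in Spry2FF mice. Its mean was 87.9% ± 13.1 (SD, n = 6) and 96.8% ± 4.92 (SD, n = 6), a difference of -8.92 percentage points (exact permutation test, p = 0.0996, and 0.125 within litters). The lowest share was that of Spry2IEKO replicate 4, 1 of the 2 mice with high fat genes, and without it the difference was -4.21 (exact permutation test, p = 0.242). Without Spry2IEKO replicate 6 or replicate 12, both at a share of 100%, the difference was -11.3 (exact permutation test, p = 0.0455).

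**Figure D3:**
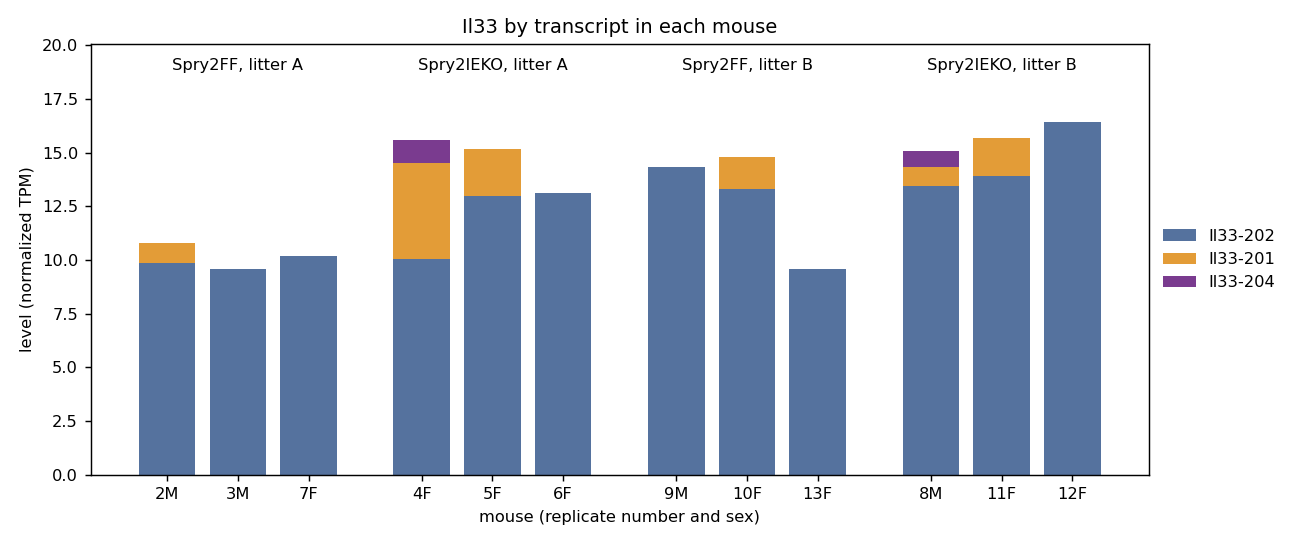
Il33 level of each mouse (vertical axis, normalized TPM) as stacked bars of its 3 detected transcripts, with mice on the horizontal axis by litter and genotype and named by replicate number and sex. Il33-202 made up most of every bar, Il33-201 reached 4.50 in Spry2IEKO replicate 4, and Il33-204 was seen in Spry2IEKO replicates 4 and 8.

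The other 2 ligands were lower, at percentiles 40.9 (Tslp) and 17.6 (Il25) of the genes above 0, and did not differ between genotypes beyond their spread. Il25 (ENSMUSG00000040770, chromosome 14, 54932695 to 54935837), the tuft cell cytokine, was listed at 0 in 6 mice. In Spry2FF mice it was 0.112, 0.126 and 0.133 in the 3 mice of litter A and listed at 0 in the 3 of litter B. In Spry2IEKO mice it was 0.155 and 0.245 in replicates 5 and 6 of litter A, 0.142 in replicate 11 of litter B, and listed at 0 in the other 3. The values above 0 lay more often in litter A, in 5 of its 6 mice, than in litter B, in 1 of 6 (difference of the means between litters, exact permutation test, p = 0.0541). Between genotypes the exact permutation p was 0.513. Tslp (ENSMUSG00000024379), which acts on dendritic cells and ILC2s, ran from 0.480 to 1.40 in Spry2FF and from 0.190 to 1.38 in Spry2IEKO mice. Its means were 0.920 ± 0.364 (SD, n = 6) and 0.855 ± 0.444 (SD, n = 6), and the mice of both groups were mixed (exact permutation test, p = 0.777). The Spry2IEKO mice exceeded the Spry2FF mice by 0.173 in litter A and the difference was -0.304 in litter B.

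The receptor of IL-25 was the member that separated the genotypes. Il17rb (ENSMUSG00000015966, chromosome 14, 29996135 to 30008896, minus strand), the chain that binds IL-25, ranged in Spry2FF mice from 1.596 to 2.31 around a median of 2.12, and in Spry2IEKO mice from 2.37 to 4.34 around a median of 3.08. All 6 Spry2IEKO mice lay above all 6 Spry2FF mice, and 0.403% of the genes compared had groups that did not overlap, 0.189% with Spry2IEKO mice higher. The means were 3.19 ± 0.752 (SD, n = 6) and 2.05 ± 0.254 (SD, n = 6), a ratio of 1.56 (exact permutation p = 0.00216, which is the lowest that groups of 6 permit). In females alone, 5 Spry2IEKO against 3 Spry2FF mice, the difference was 0.919 and missed the threshold (exact permutation test, p = 0.0536). The log2 fold change was 0.52 with a standard error of 0.153 (limma, adjusted p = 0.628). The lowest Spry2IEKO mouse and the highest Spry2FF mouse were only 2.37 and 2.31.

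Most of this difference lay in litter B. In litter A, Il17rb was 2.58 ± 0.209 (SD, n = 3) in Spry2IEKO mice, 0.476 above the 2.10 ± 0.141 (SD, n = 3) of Spry2FF mice. In litter B it was 3.80 ± 0.498 (SD, n = 3) and 1.99 ± 0.365 (SD, n = 3), a difference of 1.80. The Spry2FF mice of both litters were alike, and the 3 Spry2IEKO mice of litter B, at 3.36 to 4.34, stood above those of litter A, at 2.37 to 2.79. The difference between litters in the log2 fold change was 0.55 with a standard error of 0.248 (limma interaction term, unadjusted p = 0.049, adjusted p = 0.998). For this term 0.0126% of all genes had an adjusted p under 0.05, and 4.19% of all genes had an unadjusted p under 0.05. Among the 6 genes fitted, Il17rb was the only one that did. With 3 mice a group the litters were therefore not shown to differ.

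The level of Il17rb was spread over 6 transcripts. Protein-coding transcripts carried 61.2% of it, and Il17rb-206, which retains an intron, carried 23.0%. The 2 coding transcripts, Il17rb-201 and Il17rb-202, both encode 499 codons. They were divided unevenly between single mice, with either of them listed at 0 in 2 mice. Summed, the coding transcripts were 1.93 ± 0.496 (SD, n = 6) in Spry2IEKO and 1.27 ± 0.279 (SD, n = 6) in Spry2FF mice, with 4 of the 6 Spry2IEKO mice above all controls (exact permutation test, p = 0.0173). The other types summed to 1.26 ± 0.801 (SD, n = 6) and 0.772 ± 0.231 (SD, n = 6) (exact permutation test, p = 0.123). The difference of 1.14 in the gene's level was thus 0.652 in its coding part.

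Tuft cells and ILC2s are known to carry Il17rb. A list of 16 other tuft cell genes summed to 74.2 to 111 in Spry2IEKO and 48.9 to 95.6 in Spry2FF mice, and 14 of the 16 had the higher mean in Spry2IEKO mice. None of these genes was listed at 0 in every mouse, and the most abundant were Ptgs1, Hpgds and Alox5ap. In limma, 13 of the 15 tuft cell genes fitted, Il17rb among them, had a log2 fold change above 0, as did 52.1% of all genes. Of these 15 genes, 0 passed an adjusted p of 0.05 and 4 had an unadjusted p under 0.05, where 6.18% of all genes did. These 4 were Sh2d6, Rgs13, Trpm5 and Il17rb, and the median was 0.44. The 10 ILC2 genes other than the receptors summed to 3.22 to 12.1 in Spry2IEKO and 5.19 to 10.1 in Spry2FF mice, with Hlf and Rora the most abundant and Il13 listed at 0 in every mouse. The mean was higher in Spry2IEKO mice for 8 of these 10. On the ILC2 list with the receptors, all 5 genes fitted lay above 0, with a median of 0.29. By limma 1 of the 5 had an unadjusted p under 0.05 and 0 passed the adjusted p. No relation of Il17rb to the tuft cell sum was detectable over the 12 mice (log2 scale, Pearson r = 0.26, permutation p = 0.409, and Spearman rho = 0.39, permutation p = 0.208; both adjusted over 4 relations, 0.554 and 0.415). Without the 2 farthest mice r was 0.12, within Spry2IEKO mice -0.40, within Spry2FF mice -0.35, in litter A 0.41 and in litter B 0.40. The sign of r was negative within each genotype, and with 6 mice a relation was not detectable. The sum gives most weight to its most abundant genes, so it may not follow the less abundant genes of the list.

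**Figure D4:**
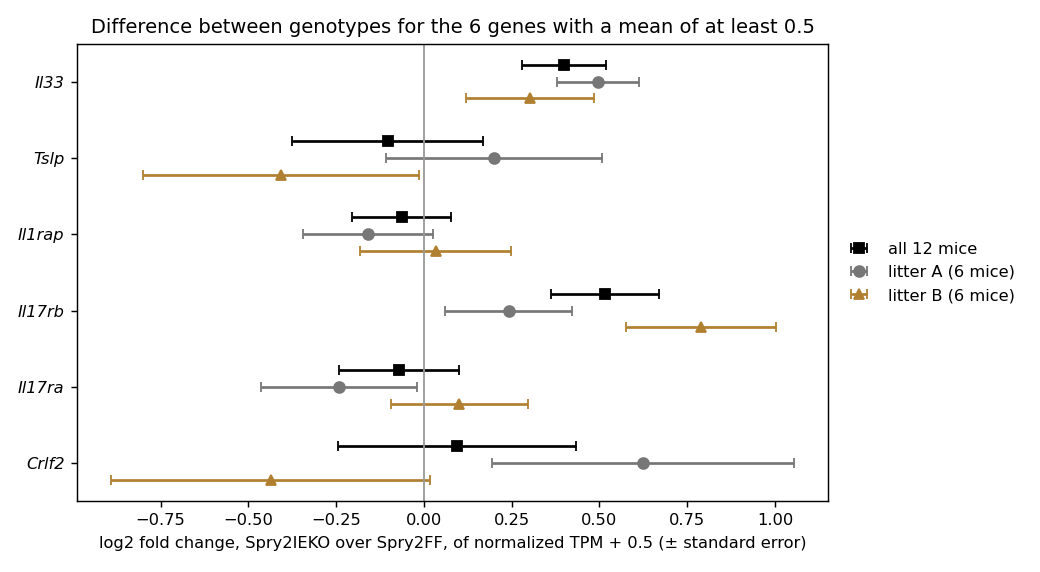
Log2 fold change of Spry2IEKO over Spry2FF mice (horizontal axis, on normalized TPM + 0.5, bars are standard errors from limma) for the 6 genes whose mean reached 0.5, over all 12 mice (squares) and within litter A (circles) and litter B (triangles). Il33 and Il17rb lay above 0 in both litters, whereas Tslp, Il1rap, Il17ra and Crlf2 changed side between litters.

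Il17ra (ENSMUSG00000002897, chromosome 6, 120463247 to 120487559), the chain shared by IL-25 and IL-17A, ran from 9.22 to 17.0 in Spry2FF and from 9.24 to 16.4 in Spry2IEKO mice. The means were 12.3 ± 2.74 (SD, n = 6) and 11.8 ± 3.01 (SD, n = 6), and the groups overlapped over nearly their whole range (exact permutation test, p = 0.747). The sign of the difference was not the same in the litters, -2.06 in A and 0.968 in B. Only 3.09% of the level came from the protein-coding Il17ra-201, which was 0.366 ± 0.148 (SD, n = 6) in Spry2IEKO and 0.380 ± 0.140 (SD, n = 6) in Spry2FF mice. Il17ra-203, which retains an intron, carried 50.7% and Il17ra-202, annotated as a processed transcript, 46.2%. The high rank of Il17ra among the 8 genes therefore rests on transcripts that are not annotated as coding.

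**Figure D5:**
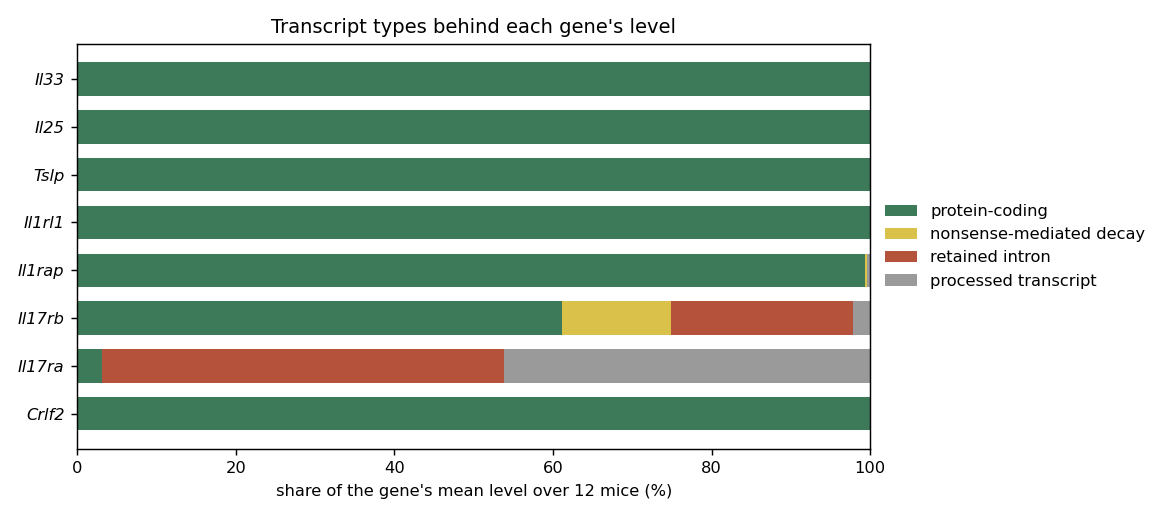
Share of each gene's mean level over 12 mice (horizontal axis, percent) by annotated transcript type. Il17ra drew 3.09% and Il17rb 61.2% of its level from protein-coding transcripts, and the other 6 genes at least 99.4%.

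The receptor chains of IL-33 did not differ between genotypes beyond the spread between mice. Il1rl1 (ENSMUSG00000026069, chromosome 1, 40429570 to 40465415) ran from 0.228 to 0.774 in Spry2FF and from 0.168 to 0.848 in Spry2IEKO mice, with medians of 0.336 and 0.268 (exact permutation test, p = 0.950). In each genotype 1 mouse of litter A was high, Spry2FF replicate 3 at 0.774 and Spry2IEKO replicate 4 at 0.740, as was Spry2IEKO replicate 11 of litter B at 0.848. Il1rl1 makes a long form that spans the membrane and a short form that is secreted and binds IL-33 away from cells. Il1rl1-201, of 567 codons, carried 51.0% of the level and was above 0 in all 12 mice, at 0.209 ± 0.0740 (SD, n = 6) in Spry2IEKO and 0.204 ± 0.0450 (SD, n = 6) in Spry2FF mice. The transcripts of 337 codons, Il1rl1-203 and Il1rl1-205, carried 49.0% and were above 0 in 9 mice, at 0.203 ± 0.259 (SD, n = 6) and 0.193 ± 0.195 (SD, n = 6). Single mice ran from 0.0871 to 0.312 for Il1rl1-201 and from 0 to 0.620 for the transcripts of 337 codons.

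Mast cells are known to carry Il1rl1. The 11 mast cell genes summed to 27.4 to 57.2 in Spry2IEKO and 18.6 to 28.2 in Spry2FF mice, led by Kit and Cma1, with Fcer1a and Tpsab1 listed at 0 in every mouse. The mast cell sums overlapped between genotypes only from 27.4 to 28.2, and the levels of Il1rl1 over nearly their whole range. Only 5 of the 11 mast cell genes had the higher mean in Spry2IEKO mice. Of the 3 fitted, 1 passed the adjusted p, where 0.0315% of all genes did. This was Cma1, a chymase, at 21.3 ± 7.58 (SD, n = 6) in Spry2IEKO and 5.24 ± 1.98 (SD, n = 6) in Spry2FF mice (log2 fold change 1.90, limma, adjusted p = 0.0350). Over the 12 mice Pearson r was 0.26 (permutation p = 0.416) and Spearman rho 0.028 (permutation p = 0.939), with adjusted values of 0.554 and 0.939 over 4 relations. Without the 2 farthest mice r was 0.23, and it was 0.32 in Spry2IEKO mice, 0.062 in litter A and 0.60 in litter B. Within Spry2FF mice r was 0.82 (exact permutation test, p = 0.025, not adjusted).

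Il1rap (ENSMUSG00000022514, chromosome 16, 26581704 to 26730117), the partner chain that IL-33 shares with IL-1 and IL-36, ran from 4.58 to 7.73 in Spry2FF and from 4.19 to 6.75 in Spry2IEKO mice. The means were 5.72 ± 1.11 (SD, n = 6) and 5.44 ± 0.918 (SD, n = 6), and the groups overlapped (exact permutation test, p = 0.643). Il1rap-201, of 570 codons, carried 84.2% of the level, at 4.60 ± 0.931 (SD, n = 6) in Spry2IEKO and 4.80 ± 1.003 (SD, n = 6) in Spry2FF mice. Il1rap-206, of 360 codons, carried 14.7%, at 0.750 ± 0.143 (SD, n = 6) and 0.888 ± 0.169 (SD, n = 6) (exact permutation test, p = 0.160). Il1rap had the lowest coefficient of variation of the 8 genes, 17.6% over the 12 mice, against 30.6% for Il17rb and 60.6% for Il1rl1.

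Crlf2 (ENSMUSG00000033467, chromosome 5, 109554709 to 109558993, minus strand), the TSLP receptor, had nearly equal means, with Spry2IEKO mice at 1.603 ± 0.727 (SD, n = 6) and Spry2FF mice at 1.596 ± 1.04 (SD, n = 6) (exact permutation test, p = 0.983). Single mice ran from 0.887 to 2.58 and from 0.427 to 3.30. The litters differed in sign, Spry2IEKO minus Spry2FF being 0.854 in litter A and -0.839 in litter B (limma interaction term, unadjusted p = 0.137). Crlf2-201, of 359 codons, was above 0 in all 6 Spry2IEKO mice, at 0.648 to 1.07, and in 3 Spry2FF mice, at 0.427, 0.652 and 1.16. Its means were 0.830 ± 0.170 (SD, n = 6) and 0.373 ± 0.473 (SD, n = 6) (exact permutation test, p = 0.0563; limma, adjusted p = 0.989). Crlf2-203, of 357 codons, had a mean of 0.554 in Spry2IEKO and 0.537 in Spry2FF mice. Crlf2-202, of 226 codons, had the lower mean in Spry2IEKO mice, 0.220 ± 0.279 (SD, n = 6) against 0.686 ± 0.567 (SD, n = 6), with 4 Spry2FF mice above all Spry2IEKO mice (exact permutation test, p = 0.110). The differences of the means of Crlf2-201 and Crlf2-202, 0.457 and -0.466, thus nearly cancelled in the sum.

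The litters were compared for the same genes, since every member was measured in 6 mice of each. By limma with litter B over litter A, 0 of the 6 genes fitted had an adjusted p under 0.05, where 4.38% of all genes did, and 0 had an unadjusted p under 0.05, where 21.9% of all genes did. The log2 fold change was 0.20 for Il33 (standard error 0.107, adjusted p = 0.295 by limma) and -0.47 for Tslp (standard error 0.247, adjusted p = 0.293 by limma). By exact permutation of the litters, 0 of the 8 genes had a p under 0.05, and Il25 and Tslp, both higher in litter A, had 0.0541. Between genotypes, Il33, Il25 and Il17rb had the higher mean in Spry2IEKO mice in both litters, and the other 5 genes had opposite signs in the litters. Of all genes compared, 29.7% were higher in Spry2IEKO mice in both litters and 56.5% had the same sign in both.

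The other genes of these pathways were taken from lists by role, and 0 of the 56 fitted, of 70 measured, passed an adjusted p of 0.05 in limma. An unadjusted p under 0.05 was found for 3 of them, 5.36%, beside 6.18% of all genes, with 2 higher and 1 lower in Spry2IEKO mice. The pathways around the members were therefore called no more often than genes at large.

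Of 12 adaptors of IL-33 signaling, all were fitted and 10 had a log2 fold change below 0, with a median of -0.075. Irak1, the kinase that MyD88 recruits, averaged 36.5 ± 3.002 (SD, n = 6) in Spry2IEKO against 31.5 ± 2.87 (SD, n = 6) in Spry2FF mice (log2 fold change 0.21, limma, unadjusted p = 0.0158, adjusted p = 0.704). Irak3, an inhibitor of the same receptors, had 0.29 and was 2.86 and 2.22. The lowest values were those of Tab1, at -0.11, and Irak4, at -0.11. Of 8 adaptors of IL-25 signaling, 4 lay on each side of 0. Traf4 averaged 22.004 ± 3.66 (SD, n = 6) in Spry2IEKO against 27.6 ± 5.41 (SD, n = 6) in Spry2FF mice (log2 fold change -0.31, limma, unadjusted p = 0.0436, adjusted p = 0.796). Traf3ip2, the Act1 adaptor that binds the IL-17 receptors, had -0.15, Traf5 had 0.37 and Zc3h12a, an RNase that limits IL-17 responses, had 0.13.

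Among 12 partners of TSLP signaling, 6 of the 11 fitted lay above 0, with a median of 0.053. Il7r, the chain that pairs with the product of Crlf2, was 1.74 ± 1.72 (SD, n = 6) in Spry2IEKO and 1.14 ± 1.08 (SD, n = 6) in Spry2FF mice, and its log2 fold change was 0.35 (limma, adjusted p = 0.934). Pim1, a kinase gene induced by STAT5, had 0.32, Stat3 had -0.13 and Jak2 had -0.075. The other 3 receptors of the IL-17 family, Il17rc, Il17rd and Il17re, all lay below 0, at -0.22, -0.15 and -0.15, with unadjusted p by limma of 0.136, 0.297 and 0.217. Of the other IL-1 receptors, 5 of 8 were fitted. Their values ran from -0.049 for Il1rl2, which binds IL-36, and -0.016 for Sigirr, an inhibitory receptor, to 0.16 for Il1r2, a decoy, and 0.20 for Il18rap.

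Other alarmins and IL-1 family ligands were also measured. Il18, at 241 ± 79.8 (SD, n = 6) in Spry2IEKO and 240 ± 34.3 (SD, n = 6) in Spry2FF mice, was far above Il33 in level per length, and its log2 fold change was -0.037. Il1rn, the antagonist of the IL-1 receptor, had -0.17 and Il1f9, which encodes IL-36γ, 0.23, and 3 of the 12 genes were listed at 0 in every mouse. Of the type 2 outputs of ILC2s, Il13 and Il9 were listed at 0 in every mouse, and only 3 of 8 genes were fitted. Il4, whose principal coding transcript was listed at 0 in every mouse, had a log2 fold change of -0.24 from its other transcripts, Areg, a growth factor of ILC2s and epithelium, had -0.71 (limma, unadjusted p = 0.0535, adjusted p = 0.822), and Pparg had 0.20.

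The last list held shared receptor chains and the STAT6 arm through which IL-4 and IL-13 act on the epithelium, and 6 of its 8 genes lay above 0, with a median of 0.19. Retnlb, a goblet cell product that IL-13 induces, was 0 to 0.907 in Spry2FF mice and 0.219 to 15.3 in Spry2IEKO mice. The means were 0.367 ± 0.407 (SD, n = 6) and 5.77 ± 5.58 (SD, n = 6), and the log2 fold change was 2.40 with a standard error of 0.616 (limma, unadjusted p = 0.00181, adjusted p = 0.477). The groups overlapped in spite of this, since the lowest Spry2IEKO mouse lay within the range of the controls. A list of 8 goblet cell genes summed to 9611 to 18563 in Spry2IEKO and 8020 to 12157 in Spry2FF mice, and 7 of 8 had an unadjusted p under 0.05 by limma, all higher in Spry2IEKO mice. Their part in the values of Retnlb was not tested. Il2rg had 0.78, Il13ra2 had -0.040 and Stat6 had -0.059.

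Genes whose levels followed those of the members from mouse to mouse were ranked by Pearson r on the log2 scale over 12 mice, after the genotype means were subtracted, among 12880 genes with a mean of at least 2. This is a description over mice that share litter and tissue makeup. The values named are the extremes of 12880 correlations over 12 mice, and whether they exceed chance was not tested. For Il33 the 4 highest were Ago3 (r = 0.92), Hmgn1 (0.89), Gen1 (0.89) and Cks1b (0.84). For Il17rb they were Ccdc28a (0.92), Fam187b (0.88), Mtx3 (0.87) and Sprr2a1 (0.86), and none of these 4 is on the tuft cell list. For Il17ra they were C87436 (0.96), Ptpro (0.91), Cacul1 (0.91) and Ube2e1 (0.90), and for Il1rap they were Lrrc31 (0.96), Diaph2 (0.95), Tarsl2 (0.94) and Mpv17 (0.93). For Il1rl1 they were Trbj2-3, a T cell receptor segment (0.95), Gm49195 (0.92), Smyd4 (0.91) and Cd40, a receptor of B cells and dendritic cells (0.91).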

How the data were processed

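RNA of full-thickness distal colon was measured in 12 mice, whose labels give litter, sex and genotype. TPM came from pseudoalignment by the authors with kallisto. The deposited values are a per-transcript signal, that TPM after a further scaling between mice, since totals differ between mice. The submitters' processing notes name CASAVA, kallisto, sleuth and the build mm10, and the version of the transcriptome is not given in the sources used here. The methods describe single-end and the labels paired-end reads. Columns with the authors' own test statistics, p-values and variances were not used.

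The table held 113974 entries, of which 781 repeated a transcript and were dropped, and 28 gene names listed as dates were restored where their identifiers allowed. Values of 113193 transcripts were summed to genes. Transcript types and positions came from GENCODE M21 (GRCm38) and promoters from RefSeq. The values carry no read depth, and an exact 0 is reported only as listed at 0.

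In R 4.3.3, limma 3.58.1 compared genes whose mean reached 0.5, on log2(value + 0.5), which understates changes of low genes (lmFit and eBayes with trend, Benjamini-Hochberg adjustment over all genes). The genotype comparison had no covariate. The litter comparison kept genotype as a covariate, and the interaction term was fitted with genotype and litter. Transcripts were compared between genotypes in the same way as genes. Single values were compared by two-sided exact permutation over all 924 splits of 6 mice against 6, and relations across mice by permutation with 100000 resamples. Other steps used pandas 2.3.3, SciPy 1.17.1, NumPy 2.4.6 and matplotlib 3.10.9 under Python 3.11.15. Simulated data with known changes tested the limma step, and SciPy's own routine checked the permutation test. p-values measure the spread between these 12 mice.

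The genes, lists and tests were chosen with earlier results of these data known. Named genes were the 8 members, every Il33 transcript, other transcripts with a mean of at least 0.5 or else the most abundant, Spry2, of each pathway list the genes past the adjusted p or the 2 largest rises and 2 largest falls, of each marker list its most abundant genes and those listed at 0, and the 4 genes most like 5 of the members. The list of other alarmins and IL-1 family ligands departs from this, since Il1f9 alone was named of its 4 genes with a log2 fold change above 0. The choice of Sh2d6, Rgs13 and Trpm5 was made with their values known. The exact permutation test on protein-coding transcripts only, as given for Il17rb, was not planned in advance. The alternatives tried were another pseudocount or minimum mean, litter or sex as a covariate, 1 litter or females alone, other scalings, coding transcripts only, and leaving out mice. A gene of the distal colon list is not reported here, and the sum of that list was taken without it.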

Additional observations from a re-analysis of the deposited data

Results flagged for a closer look

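In 40 groups of 6 mice, covering in each genotype the 8 genes, their transcripts with a mean of at least 0.5 and the share of Il33-202, the number with a mouse whose gap to its nearest neighbour exceeded 0.625 of the group's range was 0. For none of the 6 genes fitted did the genotype difference differ between litters past an adjusted p of 0.05 (limma interaction term), and Il17rb had an unadjusted p of 0.049.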

How the results depend on the processing

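No paired analysis was possible because the genotypes share no replicate numbers, so the litter entered as a covariate, within litters or not at all. Il33 kept its direction in every alternative, with a log2 fold change of 0.30 to 0.50 and an adjusted p by limma of at least 0.381, and its exact permutation p stayed under 0.05 in all 19. Il17rb kept its direction too, at 0.24 to 0.79 (adjusted p by limma of at least 0.390). Its exact permutation p rose above 0.05 in females alone, where the difference was 0.919 (exact permutation test, p = 0.0536). The number of genes past an exact p of 0.05 was there 1. With 1 mouse left out, the genotype difference in the share of Il33-202 ran from -11.3 to -4.21 percentage points, and without Spry2IEKO replicate 6 or 12 its exact permutation p was 0.0455. For genes past no threshold, the sign turned under several settings, and the cause was not tested.

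In log2 fold change between genotypes, this gave -0.18 for Crlf2 with sex as a covariate, 0.20 for Tslp in litter A alone, 0.033 for Il1rap, 0.10 for Il17ra and -0.44 for Crlf2 in litter B alone, and 0.076 for Il17ra and -0.43 for Crlf2 in females alone. With 1 mouse left out, Tslp ran from -0.21 to 0.075, Il1rap from -0.12 to 0.021, Il17ra from -0.17 to 0.023 and Crlf2 from -0.11 to 0.30. In differences of the means, Il1rl1 was -0.011 on the log2 scale, -1.33 in mean rank and -0.0061 without Spry2IEKO replicates 4 and 5, the mice with the highest fat genes, where Crlf2 was -0.070. In females alone Tslp was 0.032, Il17ra 0.894 and Crlf2 -0.679. With 1 mouse left out, Il25 ran from -0.0025 to 0.0464, Tslp from -0.171 to 0.068, Il1rl1 from -0.072 to 0.0906, Il1rap from -0.544 to 0.119, Il17ra from -1.47 to 0.378 and Crlf2 from -0.226 to 0.348. Between litters in Spry2FF mice alone, Il17rb was -0.069 and Crlf2 0.51 on the log2 scale. Low levels of Il25 and Il1rl1 and 3 mice for each genotype in a litter limit what could be detected.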

Other observations

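Il1rl1 was 0.740 and 0.848 in Spry2IEKO replicates 4 and 11 and 0.774 and 0.441 in Spry2FF replicates 3 and 10. In the same 4 mice a list of 8 genes of B cells and follicles, led by Cxcl13, Cd79a and Cd79b, summed to 468, 186, 185 and 186. In Spry2IEKO replicate 6 the list summed to 116 and Il1rl1 was 0.178, and in the other 7 mice the list summed to 4.05 to 22.4 and Il1rl1 was 0.168 to 0.375. This pattern was noticed after the values were seen. The mice fall into separate sets by these genes, so no correlation is given, and the part of lymphoid tissue in the level of Il1rl1 was not tested.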
